A study of Homo sapiens with 6 samples.

Results

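The T-box genes TBX1, TBX2, TBX3, TBX4, TBX5 and TBX20 are best known for roles later in development than that of Brachyury (T, BRA). These 6 genes are described here through the BRA peaks around them. Their peaks were taken by position, as every ChIP-seq peak whose midpoint lay in the gene body or within 50 kb on either side of it, which gave 5 windows because the neighbours TBX2 and TBX4 share 1. The windows cover 732 kb and hold 40 of the 54994 peaks in the 4 deposited lists. The peaks come from H9 cells, a long-established line of human embryonic stem cells (hESCs), after 36 h with FGF2 (20 ng/ml) and the PI3 kinase inhibitor LY294002 (10 μM). FLyA medium also held activin A at 100 ng/ml and gives endoderm progenitors, whereas FLyB medium held BMP4 at 10 ng/ml and gives mesoderm progenitors. BRA was precipitated in each medium with an R&D Systems antibody (AF2085) or a Santa Cruz antibody (sc-20109), in 1 library per medium and antibody. H9 is a single line, 1 time point was sampled, and peak lists alone do not show whether the cells had reached the labelled fate. The 2 input libraries were not analysed here.

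T-box proteins are transcription factors that share a DNA-binding domain, the T-box, which recognises a short consensus known as the T half-site. BRA acts in the primitive streak, where mesoderm and endoderm arise, while the 6 genes described here are best known for their later roles in the heart, the limbs, the lung and the pharynx. TBX2 and TBX4 are neighbours on chromosome 17, and TBX5 and TBX3 are neighbours on chromosome 12, 2 pairs that descend from the duplication of an ancestral pair. TBX2 and TBX3 encode close paralogues that act mainly as repressors, and TBX4 and TBX5 encode close paralogues that activate genes in limb buds.

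The peaks were concentrated at TBX3 and at TBX2 and TBX4. In the R&D Systems lists the TBX3 window held 6 FLyA and 12 FLyB peaks, and the window of TBX2 and TBX4 held 5 and 10. The TBX20 window held 3 FLyA peaks and none in FLyB. The TBX5 window held 1 peak in each medium, and the TBX1 window held 1 FLyA peak and none in FLyB. The Santa Cruz lists placed 1 FLyB peak in the TBX3 window and no peak in any other window in either medium. These lists are much shorter, with 2436 FLyA and 3007 FLyB peaks against 25864 and 23687 in the R&D Systems lists, and the single FLyB peak is 1.34 times the density of its list. The study describes its Santa Cruz libraries as noisier and as having fewer unique reads. Each count stands for a single library, and the exact (Clopper-Pearson) 95% intervals given below cover counting error only. Neighbouring peaks may depend on each other, and another experiment could differ by more than these intervals show. The number of reads in each library was not used here, and a site without a peak in a list is therefore a site that was not called, not one shown to be unbound.

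**Figure D1:**
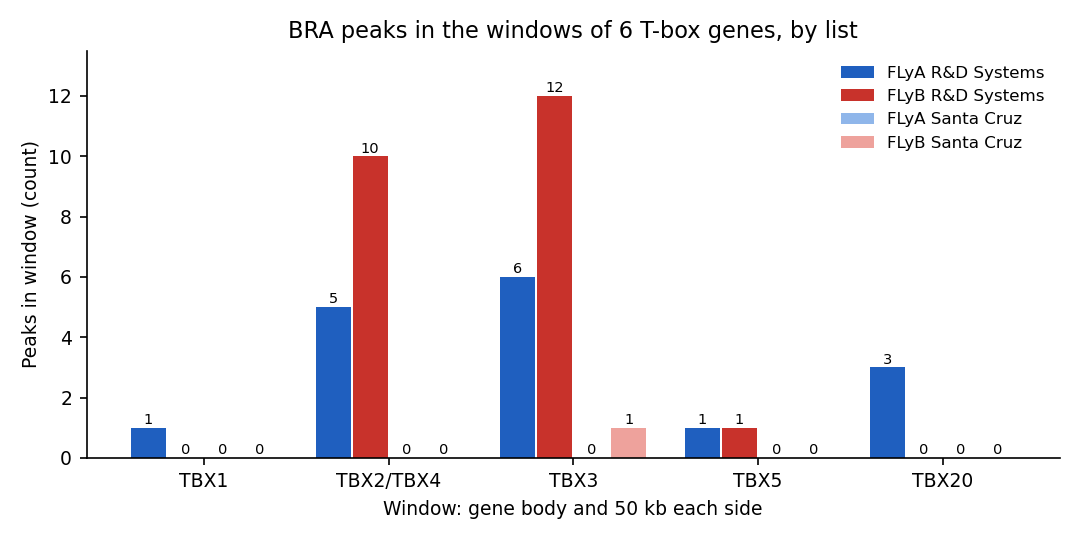
Number of BRA peaks (vertical axis) in the window of each gene or gene pair (horizontal axis) in the 4 lists, with the count above each bar. FLyB bars are higher at TBX2/TBX4 (10 against 5) and TBX3 (12 against 6), FLyA bars are higher at TBX20 (3 against 0) and TBX1 (1 against 0), and the Santa Cruz bars are at 0 except for 1 FLyB peak at TBX3.

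Set against the whole stretch of the genome that the lists span, the windows were rich in peaks. They held 2.19 R&D Systems FLyA peaks and 3.14 FLyB peaks per 100 kb. Over the 2942 Mb that the lists span, the density was lower by a factor of 2.49 in FLyA and 3.90 in FLyB. In FLyB it came from TBX3 and from TBX2 and TBX4, and in FLyA from these and TBX20. The TBX3 window had 10.5 FLyB peaks per 100 kb, a density met in 26 of 29446 tiles of 100 kb (0.0883%), and 5.26 FLyA peaks per 100 kb, met in 0.914% of tiles. The window of TBX2 and TBX4 had 5.41 FLyB peaks per 100 kb, met in 1.42% of tiles, and 2.70 FLyA peaks per 100 kb, met in 9.50%. TBX20 had 1.99 FLyA peaks per 100 kb, 2.26 times the density of the list, met in 21.9% of tiles. With 0.787 and 0.645 peaks per 100 kb in FLyA, the TBX1 and TBX5 windows were below the density of the FLyA list as a whole, and 48.7% of tiles were at least as dense. These shares describe where the windows stand and are no test. The stretch and its tiles were not limited to the surroundings of genes, whereas every window was drawn around a gene or gene pair. Whether these windows held more peaks than windows drawn around other genes was not tested.

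The distribution of BRA between the media was compared next. Of the 39 R&D Systems peaks in the windows, 23 came from FLyB, a share of 59.0% (95% interval 42.1 to 74.4%), and FLyB makes up 47.8% of both R&D Systems lists together. At TBX3 the FLyB share was 66.7% (41.0 to 86.7%), and at TBX2 and TBX4 it was also 66.7% (38.4 to 88.2%). At TBX20 it was 0 of 3 (0 to 70.8%). Every one of these intervals includes the share of the whole lists, so a preference for either medium in these windows was not resolved by the number of peaks. The antibodies were also taken as 2 replicate experiments per medium, by a comparison added after the data were seen. The windows held 0.0619% of the R&D Systems and 0% of the Santa Cruz FLyA list, and 0.0971% and 0.0333% of the FLyB lists. The share was higher in FLyB with both antibodies, but for Santa Cruz this rests on 1 peak against 0. The mean difference of 0.0342 percentage points gave p = 0.667 in an exact two-sided permutation test of 2 libraries against 2, which cannot go below 0.333.

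Sites were then counted rather than peaks, by joining FLyA and FLyB peaks that overlapped by at least 1 bp. The 39 R&D Systems peaks made 30 separate sites, of which 9 had a peak in both media, 7 in FLyA only and 14 in FLyB only. Among the FLyA peaks, 7 of 16 overlapped no FLyB peak, a share of 43.8% (19.8 to 70.1%), and 67.0% of the whole FLyA list did so. Among the FLyB peaks, 14 of 23 lacked a FLyA partner (60.9%, 38.5 to 80.3%), against 63.9% of the whole FLyB list. Both intervals include the value of the list. For FLyA this depends on TBX20, whose 3 peaks all lacked a FLyB partner. Without that window, a choice made after the data were seen, the FLyA share was 4 of 13 (30.8%, 9.09 to 61.4%), and the interval no longer included the list's 67.0%. It also depends on the overlap rule. With peaks up to 500 bp apart counted as shared, the FLyA share was 31.2% (11.0 to 58.7%), against 64.5% of the list, while the FLyB interval (30.6 to 73.2%) still included the list's 60.6%.

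**Figure D2:**
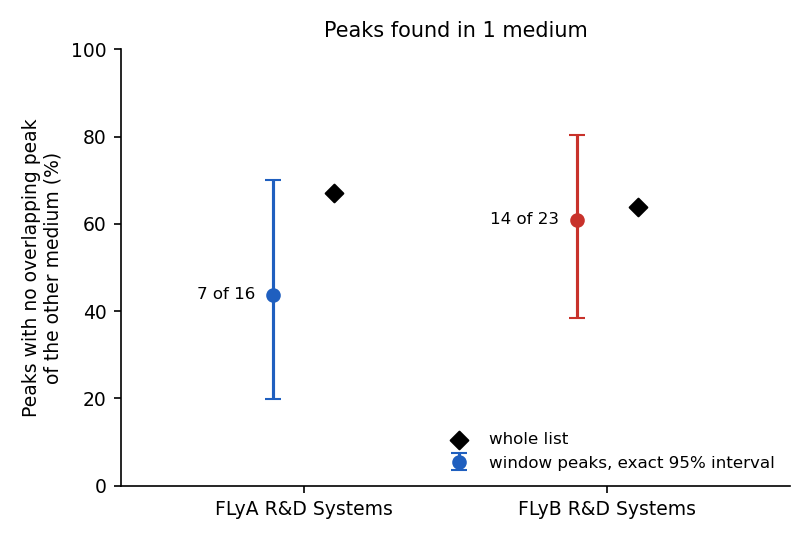
Share of R&D Systems peaks with no overlapping peak of the other medium (vertical axis, percent) for the FLyA and FLyB lists. Circles are the peaks in the 5 windows with exact 95% intervals, at 43.8% and 60.9%, and diamonds are the whole lists, at 67.0% and 63.9%, which both fall inside the intervals.

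The positions of the shared sites were compared. As all peaks are 400 bp wide, overlapping peaks have midpoints less than 400 bp apart by definition. The midpoints of the 9 overlapping pairs lay between 3 and 294 bp apart, with a median of 24 bp, and the median over all overlapping peaks of the FLyA list was 38 bp. The FLyB peaks without a partner lay a median of 8.83 kb (range 0.760 to 28.9 kb, n = 14) from the nearest FLyA peak. The FLyA peaks without a partner lay a median of 62.4 kb (0.842 to 115 kb, n = 7) from the nearest FLyB peak. This median rests on the 3 neighbouring TBX20 peaks and was 5.63 kb (n = 4) without them. Over the whole lists these medians were 23.6 kb for FLyB and 36.6 kb for FLyA, so the side of the list on which the FLyA peaks fall depends on TBX20.

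**Figure D3:**
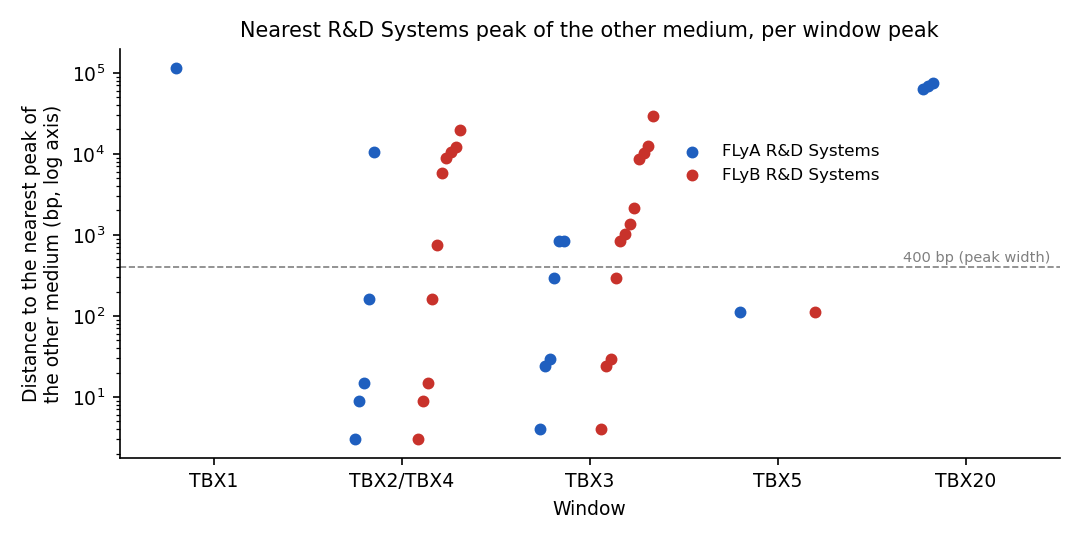
Distance from each R&D Systems peak in the windows to the nearest R&D Systems peak of the other medium (vertical axis, bp, log axis), by window (horizontal axis), with 1 point per peak. Points below the dashed line at the peak width of 400 bp overlap a peak of the other medium. The TBX20 and TBX1 points are the farthest, from 62.4 to 115.4 kb.

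TBX3 had the most peaks of the 6 genes. It encodes a repressor that is needed in limb, mammary gland and heart development and that also has a part in stem cell self-renewal. Its window runs over chr12:115058000-115172000 (hg19), and the gene, which is read from the minus strand, occupies 14.0 kb of it, with its 5′ end at 115.122 Mb to the nearest 1 kb. In FLyB, 5 peaks lay upstream of the gene, 2 within it and 5 downstream. In FLyA, 4 lay upstream, 1 within and 1 downstream. The media shared 4 TBX3 sites, and a further 2 sites were called in FLyA only and 8 in FLyB only.

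The 5′ end of TBX3 carried the densest group. The FLyB peak at chr12:115121783-115122182 covered the 5′ end at the resolution of the window, and the FLyA peak at chr12:115122077-115122476 overlapped it by 106 bp, the smallest overlap among the shared sites. The next shared site lay 2.9 kb upstream, with the FLyA peak at chr12:115124689-115125088 and the FLyB peak at chr12:115124713-115125112, which overlapped by 376 bp. The remaining shared sites were in the gene body, 4.4 kb from the 5′ end, with 371 bp of overlap, and 27.6 kb upstream, with 396 bp of overlap.

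FLyB had further peaks between and beside these shared sites. At 1.3 kb and 4.3 kb upstream of the 5′ end lay FLyB peaks that no FLyA peak overlapped, and their nearest FLyA peaks were 1029 and 1375 bp away. Together with the shared sites they formed a row of 5 FLyB peaks from 115117385 to 115126463, with 8.68 kb between the first midpoint and the last, in which FLyA had 3 peaks. On the downstream side, 4 FLyB peaks lay between 2.7 and 13.7 kb past the 3′ end and another at 41.8 kb. FLyA had 1 peak on this side, 12.9 kb past the 3′ end, and its midpoint was 842 bp from that of the nearest FLyB peak. The other FLyA-only peak, 28.5 kb upstream, lay 849 bp from the nearest FLyB midpoint. Neither FLyA-only site at TBX3 was therefore more than 1 kb from a FLyB peak.

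TBX3 was also the location of the Santa Cruz peak. This peak, at chr12:115124744-115125143, was called in FLyB, and its midpoint was 31 bp from that of the R&D Systems FLyB peak 2.9 kb upstream of TBX3. The site was thus called in FLyA and FLyB with the R&D Systems antibody and in FLyB with the Santa Cruz antibody. No FLyA Santa Cruz peak lay within 178.3 kb of it.

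**Figure D4:**
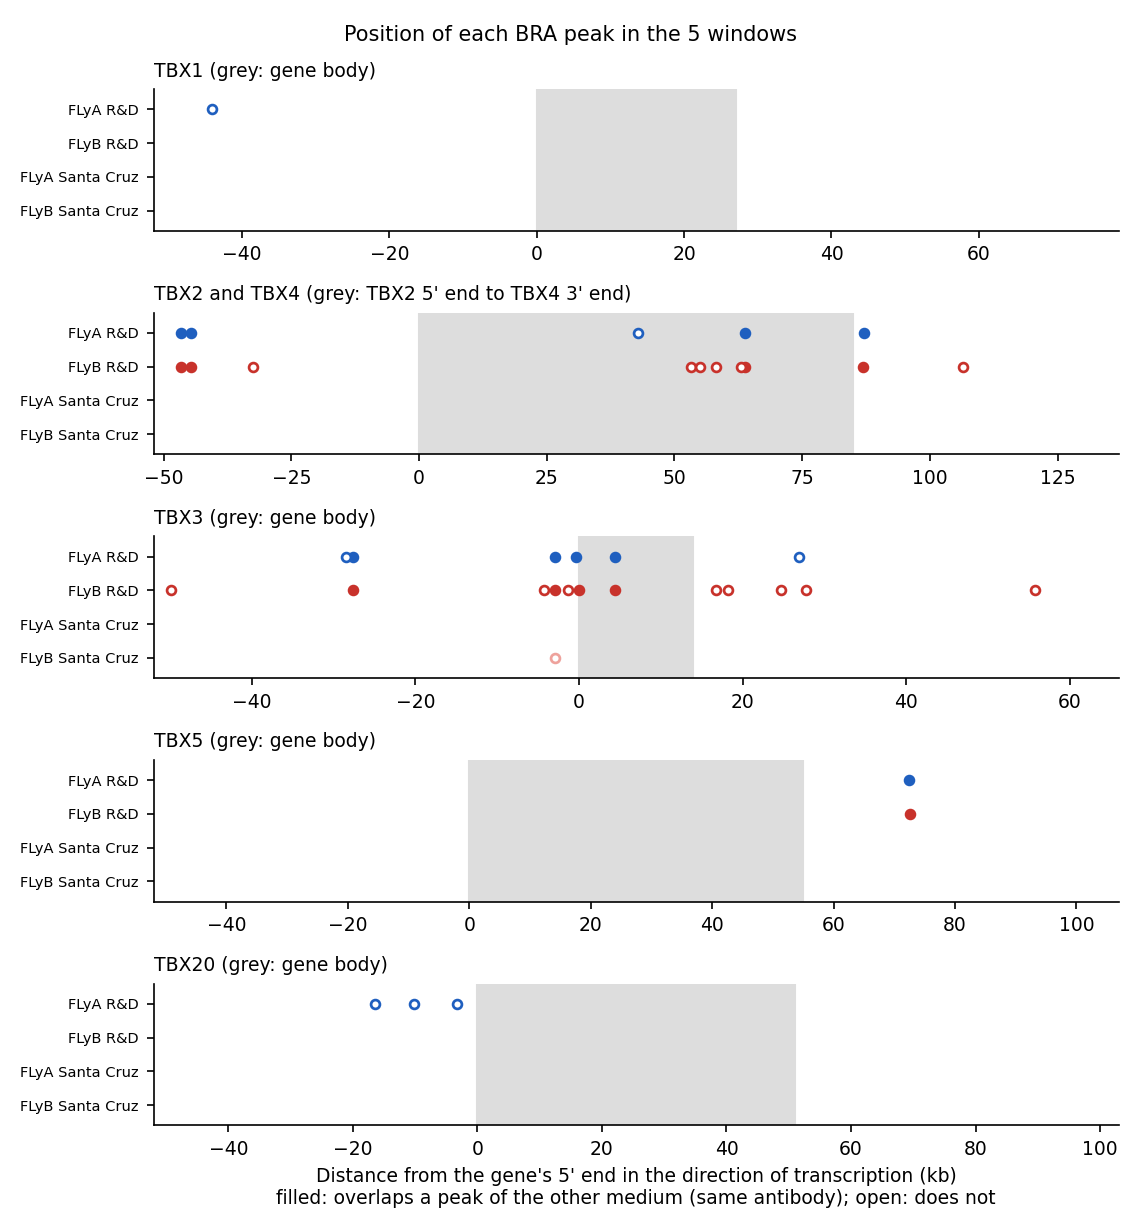
Position of every peak in the 5 windows as the distance in kb from the 5′ end of the gene along its direction of transcription (horizontal axis), with 1 row per list and the gene body in grey. Filled circles overlap a peak of the other medium with the same antibody and open circles do not. For TBX2 and TBX4 the distance is from the TBX2 5′ end and the grey span runs to the TBX4 3′ end. The FLyB row of TBX3 is densest around the 5′ end, the TBX2 and TBX4 row has 5 FLyB peaks between 53.2 and 63.9 kb, and TBX20 has 3 open FLyA circles upstream.

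TBX2 and TBX4 were examined as 1 window, chr17:59427000-59612000, since they lie in tandem on the plus strand. TBX2 encodes a repressor with roles in the heart, and TBX4 encodes an activator of hindlimb and lung development. From the 5′ end of TBX2 to the 3′ end of TBX4 is 85.0 kb, and the border between the genes was not used here, so a peak in this span is placed by its distance from these ends. The media shared 4 sites, FLyA had 1 site of its own and FLyB had 6.

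The shared sites flanked the pair on both sides. On the TBX2 side, 2 shared sites lay 46.7 and 44.6 kb upstream of the TBX2 5′ end, and their FLyA and FLyB midpoints were 9 and 3 bp apart. In the RefSeq gene order BCAS3 is the next protein-coding gene on that side, so these sites lie on the side of another gene as well as in the TBX2 window. On the TBX4 side, a shared site lay 2.1 kb past the TBX4 3′ end, with 238 bp of overlap. The fourth shared site was inside the span, 21.1 kb before the TBX4 3′ end, where the FLyA peak at chr17:59540690-59541089 and the FLyB peak at chr17:59540675-59541074 overlapped by 385 bp.

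The FLyB-only peaks of this window were grouped beside that internal site. From 59529970 to 59541074, FLyB had a row of 5 peaks, with 10.7 kb between the first midpoint and the last, and FLyA had 1 peak, the shared one. The 4 FLyB-only peaks of the row were 31.8, 30.0, 26.9 and 21.9 kb before the TBX4 3′ end. Other FLyB-only peaks lay 32.6 kb upstream of TBX2 and 21.5 kb past TBX4. The FLyA-only peak, at chr17:59519557-59519956, was 42.8 kb from the TBX2 5′ end and 10.4 kb from the nearest FLyB peak. No Santa Cruz peak of either medium fell in the window. The nearest was a FLyB peak 63.1 kb outside it.

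Rows of this kind were counted over the whole lists, by a rule chosen after the rows had been seen, as 4 or more peaks of a list with neighbouring midpoints at most 5 kb apart. The rows at TBX3 and in the span of TBX2 and TBX4 held 10 of the 23 FLyB peaks of the windows (43.5%), and 3.47% of the FLyB list lay in such rows. As the rule was set on these rows, their share beside that of the list is a description and no test. No FLyA peak of the windows lay in such a row (0 of 16, 95% interval 0 to 20.6%), and 1.50% of the FLyA list did. Within the TBX3 row FLyA had 3 peaks, with gaps of 4.7 and 2.6 kb, fewer peaks than the rule asks for. One gap in the row of TBX2 and TBX4 was 5.0 kb, at the limit of the rule. At most 3 kb apart, only the 4 FLyB peaks nearest the TBX3 5′ end remained in a row (17.4%), and 1.62% of the list. At most 10 kb apart, 14 FLyB peaks of the windows did (60.9%), and 8.85% of the list.

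TBX5, which encodes an activator of heart and forelimb development, had a single site in its window. The FLyA peak at chr12:114773354-114773753 and the FLyB peak at chr12:114773241-114773640 overlapped by 287 bp. They lay 17.4 and 17.6 kb past the 3′ end of the gene, which is read from the minus strand in the window chr12:114741000-114896000. No peak of any list lay in the 55.0 kb of the TBX5 gene body or upstream of it in the window. With a flank of 100 kb, TBX5 had 2 peaks in each R&D Systems list, the added ones lying 30.9 kb (FLyA) and 49.2 kb (FLyB) beyond the edge with no partner in the other medium. RBM19 is the next protein-coding gene on the side of the site. Between the windows of TBX5 and TBX3, a stretch of 162 kb held 1 peak in each R&D Systems list, 1 FLyA Santa Cruz peak and no FLyB Santa Cruz peak. The peaks on this part of chromosome 12 were thus gathered at TBX3, and its neighbour TBX5 had 1 peak against 12 in FLyB.

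TBX20, like TBX1, had FLyA peaks and no FLyB peak in its window. It encodes a transcription factor required for heart chamber development. Its 3 FLyA peaks lay at chr7:35296105-35296504, chr7:35302943-35303342 and chr7:35309238-35309637, all upstream of the gene, 3.3, 10.1 and 16.4 kb from its 5′ end. They were 6.8 and 6.3 kb apart. The gene body of 51.0 kb held no peak of any list. No FLyB peak was closer than 62.4 kb to any of the 3 with the R&D Systems antibody, and no FLyA Santa Cruz peak was closer than 126.2 kb.

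The absence of FLyB peaks at TBX20 depended on where the window ended. A FLyB peak lay 28.8 kb beyond its edge, at chr7:35371630-35372029, 78.8 kb upstream of TBX20 on the side of its neighbour HERPUD2. This peak was found with both antibodies, with midpoints 134 bp apart, and overlapped no FLyA peak. With a flank of 100 kb in place of 50 kb, the TBX20 region therefore held 3 FLyA and 1 FLyB R&D Systems peaks.

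TBX1, a gene of pharyngeal and cardiac outflow tract development in the chromosome 22 region deleted in DiGeorge syndrome, had the fewest peaks with the 50 kb flank. Its FLyA peak at chr22:19699781-19700180 lay 44.0 kb upstream of the gene, and the nearest FLyB peak was 115.4 kb away. A second FLyA peak, at chr22:19692877-19693276, fell 0.9 kb outside the window and was not counted. In the RefSeq gene order GP1BB and SEPTIN5 are the next protein-coding genes on this side, so the peak is in the TBX1 window by the 50 kb rule and on the side of other genes. With a flank of 20 kb, no peak of any list was left at TBX1, and with a flank of 100 kb there were 3 FLyA and 0 FLyB R&D Systems peaks. Among the peaks that were counted, the closest to an edge was a FLyB peak 49.9 kb upstream of TBX3, 0.1 kb inside its window.

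By position, 10 of the 16 FLyA peaks lay upstream of a gene, 3 downstream and 3 within the gene body or the span of TBX2 and TBX4. Of the 23 FLyB peaks, 8 lay upstream, 8 downstream and 7 within. Of the genes whose 5′ end was placed here, which leaves out TBX4, only TBX3 had a peak within 1 kb of it, and it did so in both media. TBX20 followed at 3.3 kb, in FLyA alone.

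The upstream sequences of TBX1 and TBX20 are shown because both genes had FLyA-only peaks upstream of them and none over their 5′ end. They are the 250 bases before the RefSeq start, from build GRCh38.p14, whose positions differ from those of the hg19 peaks. Capitals mark GTCTG or its reverse complement CAGAC, a short element known as the SMAD box. Activin and BMP4 act through SMAD proteins, and other elements that these proteins may bind were not searched for. The TBX1 sequence is chr22:19756453-19756702 on the plus strand and the TBX20 sequence is chr7:35254101-35254350 on the minus strand.
TBX1: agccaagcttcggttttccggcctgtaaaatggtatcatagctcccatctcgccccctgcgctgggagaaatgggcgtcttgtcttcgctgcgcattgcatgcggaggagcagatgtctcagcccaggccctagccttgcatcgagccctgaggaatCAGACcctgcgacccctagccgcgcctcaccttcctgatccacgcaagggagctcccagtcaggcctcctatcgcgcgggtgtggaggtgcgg
TBX20: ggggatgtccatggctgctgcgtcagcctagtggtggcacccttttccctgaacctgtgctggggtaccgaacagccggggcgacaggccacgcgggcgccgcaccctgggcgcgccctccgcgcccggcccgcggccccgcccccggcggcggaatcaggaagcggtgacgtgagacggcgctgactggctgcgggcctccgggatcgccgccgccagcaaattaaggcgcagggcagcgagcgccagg

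The upstream sequences come from another build and were not placed against the peaks, so they show what lies before the RefSeq starts and not what BRA bound. The T half-site TCACACCT, or its reverse complement AGGTGTGA, was in none of the 5 upstream sequences that the RefSeq table gives for TBX1, TBX4, TBX5 and TBX20, and in 0.786% of all 35116. Its core TCACAC, or GTGTGA, which the half-site contains, was likewise in none of the 5 and in 9.90% of all. On both strands, the FOX letters GTAAACA were in none of the 5 and in 2.98% of all, the POU letters ATGCAAAT in none and 1.63%, the SOX letters ACAATGG in none and 2.62%, and the GATA letters AGATAA in none and 9.17%. The SMAD box was in 4 of the 5, those of TBX1 and TBX4 and both of TBX5, and in 38.0% of all. These sequences are too few to show an excess, and none is given for TBX2 or TBX3. TBX20 held none of the letters searched for, and its upstream bases were 74.0% G and C against a median of 58.0% over the table. With no match, all that is known is that these letters are not in these 250 bases.

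The antibodies were compared last. None of the 16 R&D Systems FLyA peaks overlapped a Santa Cruz FLyA peak (95% interval 0 to 20.6%), and 3.02% of the whole FLyA list did. Of the 23 R&D Systems FLyB peaks, 1 overlapped a Santa Cruz FLyB peak, a share of 4.35% (0.110 to 21.9%), and 10.0% of the whole FLyB list did. Both shares are compatible with those of the lists within counting error. The single Santa Cruz peak of the windows lay on an R&D Systems peak, as 79.0% of the Santa Cruz FLyB list did. Apart from the TBX3 site 2.9 kb upstream, every peak in the windows was therefore called with the R&D Systems antibody alone. The Santa Cruz lists are much shorter, so a missing overlap does not show that a site lacked Santa Cruz signal. The study reports a high correlation of binding between its antibodies in each medium, which could not be examined from positions alone.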

How the data were processed

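Each of the 4 ChIP-seq lists holds chromosome, start and end of 400 bp peaks. According to the submitters' processing notes, reads were aligned with Bowtie 0.12.7 to hg19, and the methods name MACS for peak calling. The Santa Cruz track lines give 1e-12 as the MACS cut-off, and for R&D Systems it is not given in the sources used here. The lists the authors deposited carry positions and no other values, so the number of reads and the strength of a peak are unknown here. Each list comes from 1 library, and no list was pooled. The study treats the antibodies as replicate experiments, and the media were compared over them by exact permutation.

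Windows were given as hg19 positions rounded to 1 kb, and gene ends were taken as 50 kb inside their edges. Strands came from RefSeq, or from general knowledge for TBX2 and TBX3. Positions are counted from 1. An overlap of 1 bp or more made peaks of different lists shared. Densities were taken over the stretch of every chromosome that peaks span. Named genes were the 6 members and their RefSeq neighbours. Gene order came from GRCh38.p14 and gave names only. The members and lists were chosen with earlier results of these data known.

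Python 3.11.15, NumPy 2.4.6, SciPy 1.17.1 and matplotlib 3.10.9 were used. The overlap count was checked with bedtools 2.31.1 and the functions were tested on simulated data. Peaks in other T-box genes and motifs within peaks need an hg19 annotation or genome and were not analysed here. Alternatives covered the flank, the overlap, the antibody, the chromosomes and the tile width.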

Additional observations from a re-analysis of the deposited data

How the results depend on the processing

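The share of FLyA peaks without a FLyB peak ranged from 30.8% to 54.5% over the flanks, overlap rules, merged antibodies and left-out windows, and that of FLyB peaks from 43.5% to 65.2%, all inside the intervals of the values reported. In 2 settings 1 FLyB peak was left, which is too few to read: in the Santa Cruz lists alone the FLyB share was 100%, and among FLyB peaks of the R&D Systems antibody that met a Santa Cruz peak it was 0%. Neither setting gave a FLyA value, because no peak was left. In the gene bodies alone the R&D Systems lists held 3 FLyA and 7 FLyB peaks and the FLyB Santa Cruz list 0. Peaks found with both antibodies numbered 0 in FLyA and 1 in FLyB, and their density was 0 times the genome's in FLyA and 1.69 times in FLyB. With a flank of 100 kb the FLyB Santa Cruz list held 2 peaks. Rows of peaks at most 3 kb apart held 17.4% of the FLyB peaks. The flank and antibody settings change the length or the lists counted by construction, and the gap rule changes which peaks form a row. At TBX2 and TBX4 the R&D Systems peaks were 3 in FLyA and 6 in FLyB with a flank of 20 kb, and 8 and 12 with 100 kb. Leaving out windows in turn, the gap of 1 kb and the rows of peaks were chosen after seeing the data. A stricter threshold could not be applied, since the lists hold no score, and the motif alternative for peaks was not run for want of an hg19 genome. Pairing the media by antibody as a replicate block left the mean difference in the share of a list at 0.0342 percentage points, with an exact two-sided p of 0.5, the smallest that 2 pairs can give.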
